A study of Mus musculus with 30 samples.

Results

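The leukemia inhibitory factor receptor gene Lifr was followed with 9 genes that act with it in colon tissue, 10 genes of the 46078 in the count table. They are the receptor genes Lifr, Il6st, Osmr, Il6ra, Il11ra1 and Cntfr, the kinase gene Jak1, the transcription factor gene Stat3, the inhibitor gene Socs3 and the ligand gene Lif. Lifr was chosen by its difference between HFD and CD in females, so its values in that contrast are a description and carry no test. The other genes were taken for their place in the same pathway, with earlier results of these data known.

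RNA was sequenced from the colon of 30 C57BL/6J mice, 6 animals in each of 5 groups. CD F and CD M were non-ovariectomized females and males fed a control diet, and HFD F and HFD M were females and males fed a high-fat diet, for 13 weeks, all with vehicle injections during the last 3 weeks. HFD+E2 M were HFD-fed males that received 9 intraperitoneal injections of 17β-estradiol (E2, 0.5 mg/kg body weight) over those 3 weeks. The labels name the tissue as colon, and the study's methods name distal colon. It holds many cell types, so a change in the share of a cell type and a change in RNA per cell cannot be told apart, and E2 was tested in males only.

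Receptors of this family signal through gp130, the product of Il6st, which is shared by the receptors for interleukin 6, interleukin 11, oncostatin M, ciliary neurotrophic factor and leukemia inhibitory factor. The LIF receptor pairs with gp130 on the cell surface, whereas the interleukin receptors bind their ligand and then recruit gp130. JAK kinases bound to the receptors phosphorylate STAT3, which moves to the nucleus and raises transcription of Socs3, whose product dampens the same receptors. In the intestine the pathway is known for epithelial repair and for its part in inflammation.

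Lifr lies at chr15:7129559-7197489 on the plus strand of GRCm38 as the files give it, and no other gene of the GENCODE annotation overlaps this span. GENCODE itself starts Lifr further upstream, at 7090614, and that stretch was not searched for overlaps. Of the Lifr start sites in RefSeq (GRCm38.p6), those whose window holds GGTCA are shown. A window is the 300 bases around a start, 250 before and 50 after it. Any Lifr window without these letters is not shown. Capitals mark GGTCA on either strand, the element that the palindromic estrogen response element holds on both of its arms. Socs3 is shown as the member whose window holds TTCNNNGAA (capitals), the element that STAT proteins bind. The windows are chr15:7129322-7129621 (plus strand), chr15:7140292-7140591 (plus strand) and chr11:117969317-117969616 (minus strand). Each lies inside a GENCODE transcript of its gene, and that of the downstream Lifr start also lies within the Lifr span given above.
Lifr, upstream start: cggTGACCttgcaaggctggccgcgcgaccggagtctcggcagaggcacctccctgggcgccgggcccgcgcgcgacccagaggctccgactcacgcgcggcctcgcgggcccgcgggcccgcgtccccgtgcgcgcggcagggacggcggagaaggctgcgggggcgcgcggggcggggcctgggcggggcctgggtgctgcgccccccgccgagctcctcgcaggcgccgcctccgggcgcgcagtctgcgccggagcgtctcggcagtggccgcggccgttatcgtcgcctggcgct
Lifr, downstream start: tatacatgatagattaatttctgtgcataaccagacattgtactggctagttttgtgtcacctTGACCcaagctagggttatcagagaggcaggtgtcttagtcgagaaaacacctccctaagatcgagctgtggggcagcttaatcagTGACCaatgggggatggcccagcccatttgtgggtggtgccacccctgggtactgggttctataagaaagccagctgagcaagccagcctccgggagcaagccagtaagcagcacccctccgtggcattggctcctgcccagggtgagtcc
Socs3: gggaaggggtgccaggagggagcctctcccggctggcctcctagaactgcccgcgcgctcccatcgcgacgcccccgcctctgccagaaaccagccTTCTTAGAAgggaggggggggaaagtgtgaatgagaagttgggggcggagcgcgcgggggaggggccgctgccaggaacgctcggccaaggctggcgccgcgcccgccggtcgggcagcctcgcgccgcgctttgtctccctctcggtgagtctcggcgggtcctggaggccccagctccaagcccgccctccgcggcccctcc

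In the Lifr windows, shown for holding it, GGTCA began at -247 relative to the upstream start and at -187 and -101 relative to the downstream start. Of all 32851 promoter windows, 40.48% hold these letters. GGTCA was in 6 of the 17 windows of the 10 genes, those of Lifr, Il6st and Cntfr. The whole palindrome, GGTCA and its reverse complement with a spacer of any 3 letters, was in 0.07% of windows and in none of these 17. TTCNNNGAA began at position -154 relative to the Socs3 start and was in 8.3% of windows. The E-box CACGTG, which clock proteins bind, was in 7.15% of windows and, of these genes, in that of Il6ra. All motifs were searched on both strands, and a match is a description of letters only.

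Levels of different genes were compared in TPM, the authors' transcript abundance, which corrects for gene length and depth. Among the 10 genes, the chain, kinase and transcription factor that the receptors share were the most abundant. Stat3 averaged 43.2 TPM over the 30 libraries (range 30.2 to 60.2), Jak1 41.9 (31.4 to 59.4) and Il6st 40.1 (23.7 to 55.5). These ranges overlapped, and all lay above those of the ligand-specific receptors. Among these, Il11ra1 averaged 13.1 TPM (8.03 to 19.9), Lifr 9.96 (5.91 to 16.9), Osmr 4.66 (2.31 to 7.37) and Il6ra 2.13 (1.38 to 3.85), each overlapping the next. Socs3 averaged 1.75 TPM (0.536 to 3.94) and Lif 0.453 (0.129 to 1.79), the latter on 5 to 40 counts per library. Cntfr, the ciliary neurotrophic factor receptor, had 0 to 13 counts per library and did not pass the filter on low counts, so that 9 of the 10 genes could be tested.

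**Figure D1:**
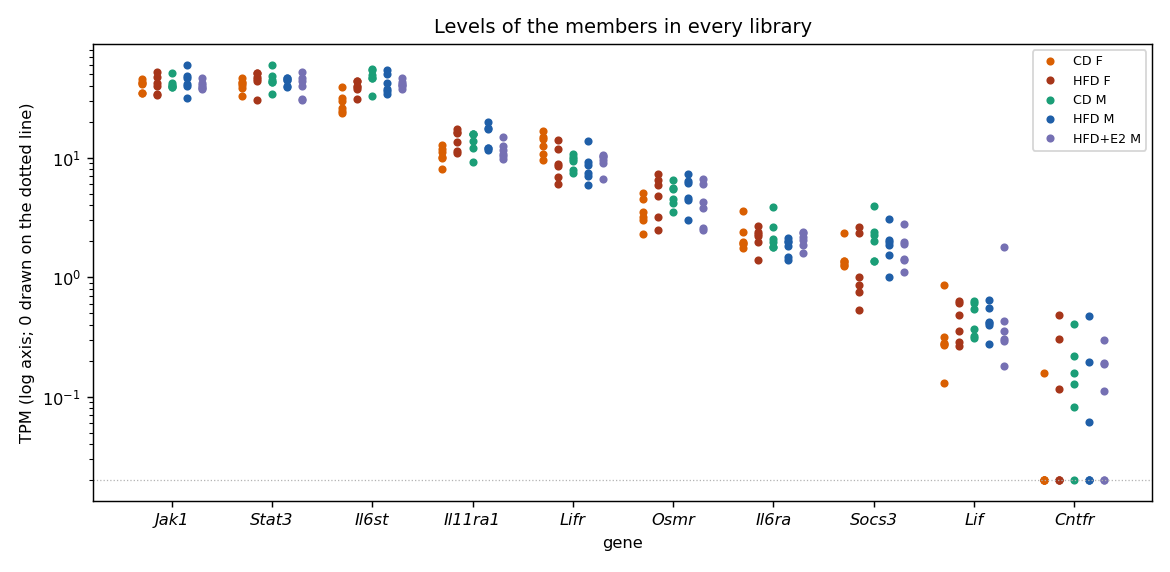
TPM (log axis) of the 10 genes in each of the 30 libraries, colored by group, with values of 0 on the dotted line. Stat3, Jak1 and Il6st lay between 23.7 and 60.2 TPM in all libraries, and the order of the genes spanned from these to Cntfr at 0 to 0.479 TPM.

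Ligands were scarce in this tissue. Il6 had 0 to 2 counts per library, Il11 0 to 4 and Osm 0 to 4, and Ctf2 and Il31 had none in any library. Ctf1 (3 to 20 counts), Cntf (2 to 13) and Clcf1 (2 to 21) were in the same range as Lif. Lifr itself had 364 to 1082 counts per library, so its values rest on more reads than those of any of the ligands.

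Lifr was first compared between groups in CPM, counts scaled to library size by the TMM method. In CD F, Lifr ranged from 60.4 to 102 CPM with a median of 78.3. In HFD F it ranged from 38.8 to 54.8 with a median of 43.5. All 6 HFD females lay below all 6 CD females. The difference was -0.82 ± 0.13 (log2 fold change ± SE, n = 6 per group), a mean of 44.9 CPM in HFD F against 79.9 in CD F.

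**Figure D2:**
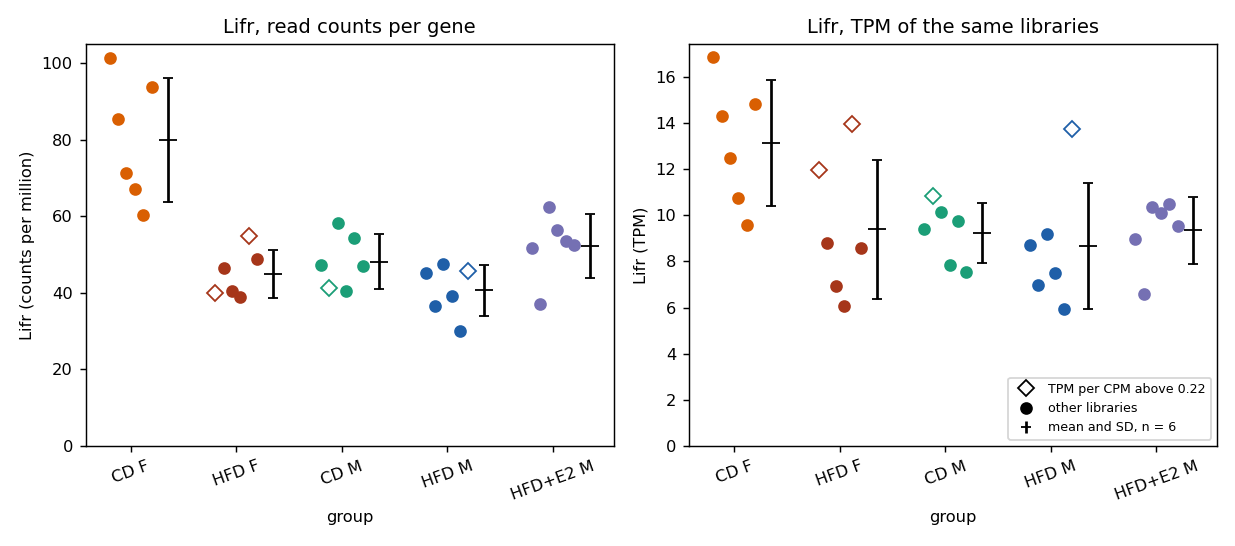
Lifr in each of the 30 libraries by group, in CPM (left) and in TPM (right), with mean and SD (n = 6) beside the points. In CPM the HFD females (38.8 to 54.8) lie below the CD females (60.4 to 102), and in TPM they overlap (6.08 to 14.0 against 9.60 to 16.9); diamonds mark the 4 libraries with over 0.22 TPM per CPM.

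By its p-value, Lifr held rank 3 of the 15061 genes tested in this contrast, behind Ly6c2 and Ciart, and was the last inside the threshold on adjusted p-values. Fa2h (1.02 ± 0.17, log2) and Ppp1r3b (-0.48 ± 0.08) were just outside. Of the 10 genes Lifr alone was called in this contrast, both at the study's threshold (unadjusted p below 0.05, with more than 0.4 on the log2 scale up or down) and after Benjamini-Hochberg adjustment with edgeR. Over all genes, 3.67% were called at the study's threshold, 0.0199% after adjustment, and 0.232% did not overlap between the groups. Since this contrast chose Lifr, nothing is read from that. The adjusted call was lost when any of CD F replicates 1, 2, 3 and 6 or HFD F replicates 1, 3, 4 and 6 was left out, with log2 fold changes from -0.90 to -0.75 over all 12 leave-outs, and in the other 4 leave-outs it stayed.

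The other tested genes differed less between HFD F and CD F. Osmr, the oncostatin M receptor, was 0.39 ± 0.14 (log2) higher in HFD F, just under the study's fold minimum. It ranged from 11.0 to 18.5 CPM (median 15.8) in HFD F and from 10.02 to 13.5 (median 11.5) in CD F. The groups overlapped, and Osmr passed the study's threshold when CD F replicate 1 or 5 or HFD F replicate 2 or 5 was left out. Lif (0.37 ± 0.28) and Socs3 (-0.29 ± 0.32) had wide errors on few counts, and Lif passed that threshold without CD F replicate 2. Il11ra1, Il6st, Stat3, Il6ra and Jak1 lay between -0.05 and 0.18. In TPM, however, Il6st averaged 39.3 in HFD F and 29.3 in CD F, with overlapping ranges. The median of the 9 genes was 0.09, beside 0.0012 over all genes tested.

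TPM gave a smaller difference for Lifr. In TPM it ranged from 9.60 to 16.9 (median 13.4) in CD F and from 6.08 to 14.0 (median 8.70) in HFD F, and the difference of mean log2(TPM + 0.1) was -0.51. The ratio of TPM to CPM lay between 0.157 and 0.198 in 26 libraries. It was between 0.255 and 0.301 in the other 4, CD M replicate 2, HFD F replicates 1 and 5 and HFD M replicate 6. TPM is assembled from transcripts and CPM from reads on the whole gene, and the cause of the higher ratio in these libraries was not tested.

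Markers of stratified squamous epithelium, the lining of the anal canal, were high in some HFD F and HFD M libraries. They were high in none of the HFD+E2 M libraries, which also came from HFD-fed animals. Their summed level was over 50 TPM in 4 of 6 HFD F libraries (replicates 1, 3, 4 and 5, 150 to 1250 TPM) and in 2 of 6 HFD M libraries (replicates 2 and 4), and at most 10.5 TPM in the other 24 libraries. The markers Dsg3 in CD F and Ivl in HFD+E2 M were at 0 in all libraries. The 8 markers scored 4.77 higher (mean log2 CPM) in HFD F than in CD F (exact permutation p = 0.0217, Benjamini-Hochberg adjusted over 60 list comparisons 0.179). Fibroblast (0.38) and macrophage (0.16) markers were also higher in HFD F, with an adjusted exact permutation p of 0.179 each. Lifr was 46.6 and 49.0 CPM in the HFD F libraries with few squamous transcripts, below every CD female. Since every HFD female lay below every CD female in the contrast that chose Lifr, any subset does so, and nothing is read from this. Without the squamous-rich libraries, on 2 HFD F libraries, the difference of Lifr was -0.74 ± 0.19. With the squamous score as a covariate it was -0.72 ± 0.19, and neither passed the adjusted threshold. Both are descriptions, and the part of squamous tissue in the difference of Lifr was not tested.

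**Figure D3:**
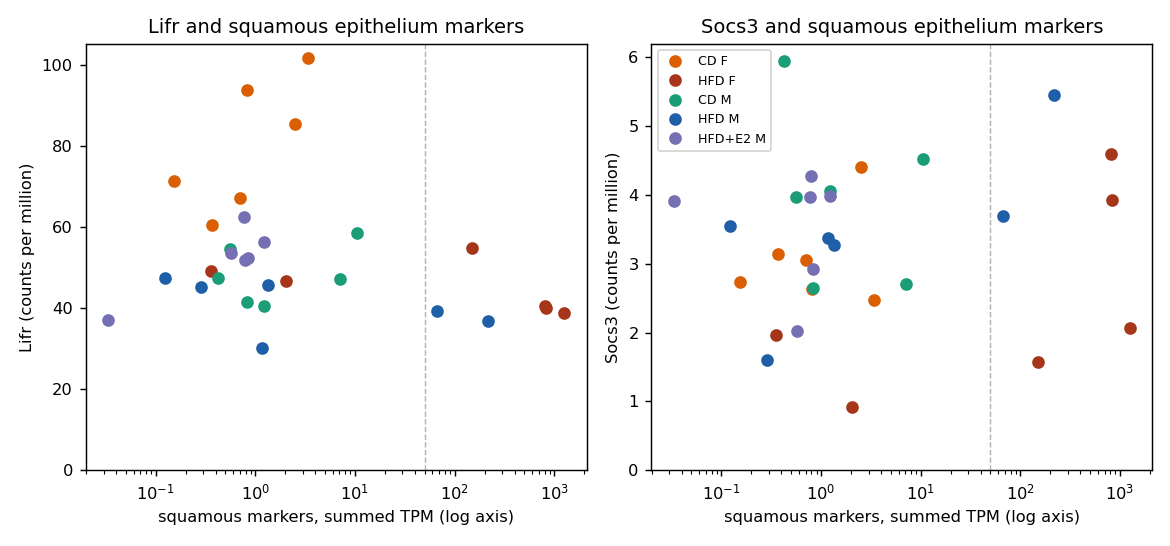
Lifr (left) and Socs3 (right) in CPM against the summed TPM of 8 squamous epithelium markers (log axis) in the 30 libraries, with the line at 50 TPM. HFD F libraries on both sides of the line have less Lifr than the CD F libraries, as all HFD F libraries do in the contrast that chose Lifr. Socs3 in HFD F spans 0.922 to 4.59 CPM.

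Values of Socs3, the feedback inhibitor of the receptors, are given on either side of that level. In HFD F, Socs3 was 0.922 and 1.97 CPM in the libraries with few squamous transcripts and 1.57 to 4.59 CPM in the others, with overlap. In CD F it ranged from 2.48 to 4.41 CPM. Without the squamous-rich libraries Socs3 was -1.09 ± 0.36 (log2) in HFD F against CD F and was called at the study's threshold, on 2 HFD F libraries. Il11ra1 went from 0.18 to -0.24 in the same fit. The part of this tissue in these values was not tested further.

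In males, the response of Lifr to HFD did not pass the test. Lifr ranged from 30.02 to 47.5 CPM (median 42.2) in HFD M and from 40.4 to 58.4 (median 47.3) in CD M, and the groups overlapped. The difference was -0.24 ± 0.13 (log2), with an edgeR p of 0.0698, an adjusted p of 0.825 and an exact two-sided permutation p of 0.0974. It was -0.30 to -0.18 with each library left out. None of the 9 genes was called in males with edgeR or DESeq2, where 2.9% of all genes were called at the study's threshold and 0% after adjustment with edgeR. None of the 9 had an unadjusted p under 0.05 with edgeR or DESeq2. Over all 14991 genes 904 had one with edgeR, and DESeq2 called 26 after adjustment. The largest differences after Lifr were those of Socs3 (-0.21 ± 0.26), Il6ra (-0.18 ± 0.12) and Osmr (0.16 ± 0.16).

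The response of Lifr to HFD was -0.59 ± 0.19 (log2) in females minus males. This value includes the female contrast that chose Lifr and is given without a test. Lifr was the 1 of 9 genes called at the study's threshold in this interaction, against 5.18% of all genes, and after adjustment edgeR called 0% of all genes, with 1066 under an unadjusted p of 0.05, and DESeq2 called 8. Il6st differed by 0.26 ± 0.12 between the sexes (edgeR adjusted p = 0.733) and Stat3 by 0.23 ± 0.11 (edgeR adjusted p = 0.733), below the fold minimum. Their own responses were in opposite directions in females (0.11 and 0.09) and males (-0.15 and -0.15) without passing the test in either sex.

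E2 was examined in HFD-fed males. Lifr ranged from 37.1 to 62.4 CPM (median 53.0) in HFD+E2 M, and 5 of the 6 animals lay above all HFD M animals (30.02 to 47.5). The difference was 0.35 ± 0.14 (log2), with an exact two-sided permutation p of 0.0346. In edgeR the p was 0.0174 and the adjusted p 0.461, and the fold was under the study's minimum. It passed that threshold without HFD M replicate 3 (0.41) or HFD+E2 M replicate 2 (0.44), the E2-treated male with the lowest Lifr. Without the 2 squamous-rich HFD M libraries it was 0.31 ± 0.16, and the response to HFD in males was -0.21 ± 0.15. This comparison and that of HFD with CD in males share the 6 HFD M libraries.

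Il6ra, the ligand-binding chain of the interleukin 6 receptor, was the other gene with a difference of this size. It ranged from 11.6 to 19.0 CPM (median 14.5) in HFD+E2 M and from 9.34 to 13.3 (median 11.4) in HFD M, with overlap. The difference was 0.38 ± 0.15 (log2; exact two-sided permutation p = 0.0173; edgeR adjusted p = 0.461). It passed the study's threshold when HFD M replicate 3 or 6 or HFD+E2 M replicate 1, 4 or 6 was left out (0.40 to 0.45). In TPM the differences with E2 were smaller, 0.14 for Lifr and 0.20 for Il6ra on the log2(TPM + 0.1) scale. None of the 9 genes was called in the full set, with 5.87% of all genes called at the study's threshold and 0.00666% after adjustment. Lifr and Il6ra had an unadjusted edgeR p under 0.05, as 1535 of all 15010 genes did. DESeq2 called none of the 9 genes either. Stat3 (0.12 ± 0.09), Osmr (-0.11 ± 0.17), Il11ra1 (-0.07 ± 0.19), Jak1 (0.05 ± 0.10), Il6st (0.02 ± 0.10), Socs3 (0.01 ± 0.26) and Lif (-0.01 ± 0.30) did not pass the test, and the 95% intervals of Osmr, Il11ra1, Socs3 and Lif include changes of the size seen in Lifr, upward or downward.

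The sexes differed in Lifr on CD. All 6 CD females (60.4 to 102 CPM) lay above all 6 CD males (40.4 to 58.4), a difference of 0.73 ± 0.13 (log2). On HFD the values of females (38.8 to 54.8) and males (30.02 to 47.5) overlapped, and the difference was 0.14 ± 0.13. Both differences use the female libraries of the contrast that chose Lifr and are descriptions. In CPM the order of the groups was CD F (79.9), HFD+E2 M (52.3), CD M (48.2), HFD F (44.9) and HFD M (40.7), and each overlapped the next in this order. Lifr was called on CD at the study's threshold and after adjustment, beside 9.15% and 2.92% of all genes, and 2.16% of all genes did not overlap, from which nothing is read for Lifr. On HFD none of the 9 genes was called with edgeR or DESeq2, beside 3.09% and 0.0988% of all genes.

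Il6st, the shared gp130 chain, was lower in females than in males on CD. It ranged from 155 to 194 CPM (median 172) in CD F and from 181 to 269 (median 231) in CD M. The difference was -0.37 ± 0.10 (log2), with an exact two-sided permutation p of 0.00866 and an edgeR adjusted p of 0.0567. The adjusted p was 0.0196 with DESeq2. In TPM the group means were 29.3 and 47.8, a larger difference. Leaving out each library gave edgeR adjusted p-values from 0.0177 to 0.139, under 0.05 without CD M replicate 1 or 6. Without CD F replicate 3 or 5 or CD M replicate 1 or 6, Il6st also passed the fold minimum (-0.43 to -0.40). Lifr and Il6st, whose products form 1 receptor, lay in opposite directions between the sexes on CD. For Lifr this is a description only, since its choice used the CD F libraries.

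Smooth muscle markers were also lower in CD F than in CD M, with a score difference of -0.61 (exact permutation p = 0.0108, adjusted 0.179), as were fibroblast (-0.49), endothelium (-0.36) and macrophage (-0.25) markers, and those of B and T cells were higher (1.08, adjusted 0.231). The summed smooth muscle markers were 2511 to 3902 TPM in CD F and 3969 to 6635 in CD M. With the smooth muscle score as a covariate the difference of Il6st was -0.10 ± 0.12, and that of Lifr 0.52 ± 0.19, no longer past the adjusted threshold. With the B and T cell score they were -0.25 ± 0.12 and 0.75 ± 0.17, again without an adjusted call. Socs3 (-0.38 ± 0.21), Lif (-0.38 ± 0.27), Osmr (-0.21 ± 0.12) and Stat3 (-0.15 ± 0.08) also had negative differences (females minus males) that did not pass the test (edgeR adjusted p from 0.392 to 0.565). Socs3 passed the study's threshold without CD F replicate 2, CD M replicate 2 or CD M replicate 6, and Lif without CD F replicate 2.

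On HFD, Il6ra was 0.35 ± 0.14 (log2) higher in females (11.1 to 17.9 CPM, median 14.1) than in males (9.34 to 13.3, median 11.4), with an exact two-sided permutation p of 0.0281 and an edgeR adjusted p of 0.872. It was the 1 gene of the 9 with an unadjusted p under 0.05, with edgeR and with DESeq2, and 773 of all 15179 genes had one with edgeR. Il6ra passed the study's threshold without HFD F replicate 5 (0.42) or HFD M replicate 3 (0.40). This comparison and that of E2 share the HFD M libraries, which had the lowest mean Il6ra of the 5 groups. Socs3 was -0.46 ± 0.35 in females, with an edgeR adjusted p of 0.878, and -1.03 ± 0.47 without the squamous-rich libraries, then past the study's threshold.

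**Figure D4:**
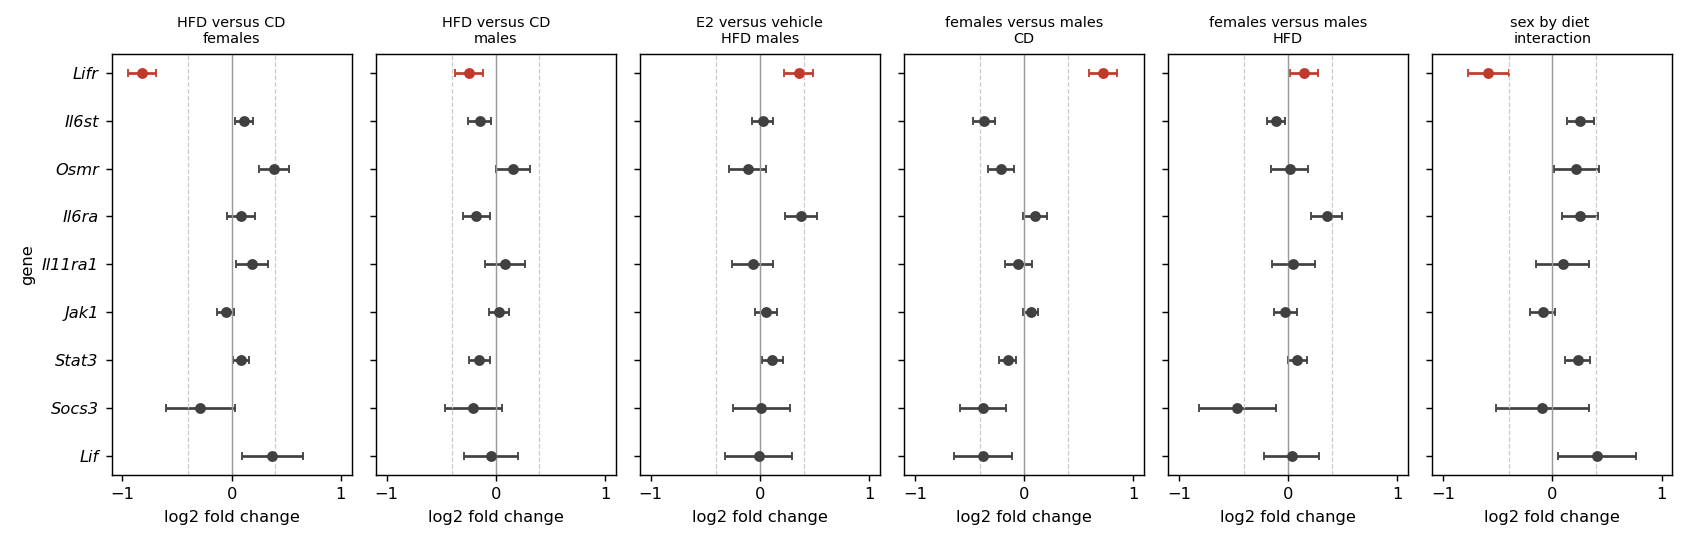
Log2 fold changes with SE of the 9 tested genes in the 5 comparisons and in the interaction, from the edgeR fits (n = 6 per group). Lifr (red) lies at -0.82 in HFD against CD females and at 0.73 in females against males on CD, and the dashed lines mark the fold minimum of 0.4.

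Of the 42 further genes of the pathway, 21 to 25 passed the filter on low counts in a comparison, and none passed the adjusted threshold with edgeR in any. Under an unadjusted edgeR p of 0.05 were 2 with HFD in females (856 of all 15061 genes), 4 in males (904 of 14991) and 3 with E2 (1535 of 15010). Between the sexes 2 were under it on CD (2207 of 14922) and 3 on HFD (773 of 15179), and 1 in the interaction (1066 of 15800). At the study's threshold 1 of 24 were called with HFD in females (3.67% of all genes), 2 of 23 in males (2.9%), 3 of 22 with E2 (5.87%), 1 of 21 between the sexes on CD (9.15%), 1 of 23 on HFD (3.09%) and 1 of 25 in the interaction (5.18%). In females HFD brought Bcl6, a transcriptional repressor induced by STAT3, past the study's threshold (0.41 ± 0.16, described without a test). In males Socs2, an inhibitor of cytokine and growth hormone receptors, was lower with HFD. It ranged from 20.4 to 26.6 CPM (median 23.9) in HFD M and from 27.2 to 42.5 (median 31.1) in CD M. The difference was -0.45 ± 0.12 (log2), with an edgeR adjusted p of 0.549. The exact two-sided permutation p was 0.00216, which any gene without overlap of 6 against 6 has. How many of all genes did not overlap in this contrast is not given here. Socs2 was named for passing the study's threshold in this same contrast, where it held rank 35 of the 14991 genes by p-value. Hp, the acute-phase protein haptoglobin, was 0.55 ± 0.26 higher (edgeR adjusted p = 0.823, exact two-sided permutation p = 0.0563) at 0.788 to 2.58 CPM in these groups.

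E2 in HFD males was accompanied by higher Bcl6 (0.42 ± 0.17, edgeR adjusted p = 0.461) and Bcl3 (0.63 ± 0.27, edgeR adjusted p = 0.476). Fos was lower (-0.69 ± 0.32, edgeR adjusted p = 0.488), and all 3 passed the study's threshold only. The exact two-sided permutation p was 0.0238 for Bcl6, 0.0801 for Bcl3 and 0.106 for Fos, and the groups overlapped in each. The median of the 22 genes was 0.17, beside 0.0011 over all genes. Between the sexes, Ptpn6, a phosphatase that restrains JAK signaling, was higher in females on CD (0.43 ± 0.16, edgeR adjusted p = 0.183). Pim1, a kinase gene induced by STAT3, was higher in females on HFD (0.59 ± 0.23, edgeR adjusted p = 0.872). Their exact two-sided permutation p-values were 0.0519 and 0.0433, and the groups overlapped in both. In the interaction Hp was called (2.81 ± 1.03, edgeR adjusted p = 0.647), with 0 to 0.801 CPM in CD F and 0.257 to 14.8 in HFD F. HFD F replicate 1 held 193 of the 276 Hp counts of its group, and without it the difference was 1.45 ± 0.72 and was no longer called. DESeq2 called 1 gene of the list after adjustment, Hp between the sexes on CD (-1.83, log2; DESeq2 adjusted p = 0.00586), which did not pass the edgeR filter there, and none in the other comparisons. In CD M Hp ranged from 0.788 to 1.64 CPM. At the study's threshold DESeq2 called 3 genes of the list with HFD in females (1018 of all genes), 1 in males (603) and 4 with E2 (1184). Between the sexes it called 3 on CD (1745) and 2 on HFD (730), and 2 in the interaction (1007). Among them were Ctf1 with E2 (-1.05, log2, DESeq2 adjusted p = 0.366) and Hp with HFD in females (3.43, without a test), neither past the edgeR filter there.

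Genes whose pattern was most like that of Lifr were taken by Pearson correlation of log2 CPM over the 30 libraries, among 13706 genes with a mean of at least 1 TPM. The closest were Arntl (r = 0.75, Spearman's rho = 0.77), Cldn8 (0.74 and 0.62), Npas2 (0.70 and 0.75), Map7 (0.69 and 0.66) and Slc34a2 (0.67 and 0.72). The most opposite were Ciart (-0.85 and -0.81), Dbp (-0.83 and -0.64) and Tef (-0.80 and -0.77). Arntl and Npas2 encode activators of the circadian clock. Ciart encodes a repressor of the clock, and Dbp and Tef encode transcription factors of its output. According to the study the mice were killed at the same time of day. Cldn8 encodes a tight junction protein, Slc34a2 a phosphate transporter and Map7 a microtubule-binding protein.

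The libraries share their group differences, and CD F had the most Arntl (median 61.8 CPM) and the least Ciart (median 0.543 CPM) of the 5 groups. After subtraction of the group means the correlations were 0.42 for Arntl, 0.33 for Npas2, 0.06 for Map7, 0.43 for Cldn8, 0.68 for Slc34a2, -0.50 for Ciart, -0.51 for Dbp and -0.36 for Tef. Over the 18 male libraries, which did not choose Lifr but are among the 30 that chose these 8 genes, they were 0.62 for Arntl, 0.60 for Npas2, 0.34 for Cldn8, 0.46 for Map7, 0.72 for Slc34a2, -0.79 for Ciart, -0.58 for Dbp and -0.64 for Tef. Without the 2 libraries farthest from the median of Lifr, they ranged from 0.60 to 0.71 for the 5 closest genes and from -0.84 to -0.72 for the 3 opposite ones. Since the 8 genes are the extremes over these same libraries, these values describe them and are no independent check.

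**Figure D5:**
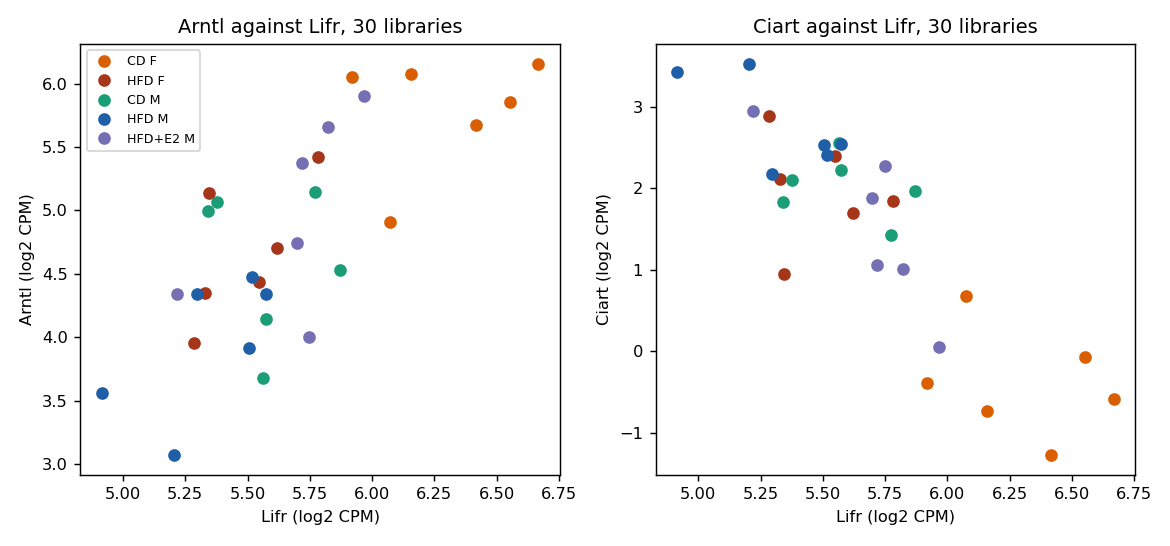
Arntl (left) and Ciart (right) against Lifr, both in log2 CPM, in the 30 libraries colored by group. Arntl is higher (r = 0.75) and Ciart lower (r = -0.85) where Lifr is higher, and CD F stands at the high end of Lifr.

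In the comparison of HFD with CD females, Ciart (2.67 ± 0.39, log2), Dbp (1.99 ± 0.54) and Tef (1.39 ± 0.24) were higher and Arntl (-1.09 ± 0.25) and Npas2 (-0.84 ± 0.27) lower, beside -0.82 for Lifr. In males the same differences were 0.84 ± 0.26, 0.48 ± 0.23, 0.57 ± 0.13, -0.66 ± 0.28 and -0.71 ± 0.28, beside -0.24 for Lifr. With E2 they were -1.11 ± 0.43, -0.27 ± 0.34, -0.47 ± 0.19, 1.14 ± 0.34 and 0.86 ± 0.29, beside 0.35 for Lifr. Of the 3 other genes of the set, in females Cldn8 (-1.03 ± 0.21), Slc34a2 (-0.76 ± 0.25) and Map7 (-0.30 ± 0.08) were lower with HFD, and in males their differences were -0.44 ± 0.19, -0.12 ± 0.30 and -0.15 ± 0.09. With E2 they were 0.13 ± 0.13, 0.43 ± 0.31 and 0.33 ± 0.10. All 8 genes were chosen for their likeness to Lifr, and their values are given without a test.

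With the group means subtracted, other genes came closest, namely Adcyap1r1 (0.72), Vezt (0.71), Exd2 (0.70), Adcy7 (0.69) and Ltbp1 (0.69), and Fubp3 (-0.69), Sars (-0.68) and Coa3 (-0.66) were the most opposite. None of them was in the set above. Among the other members, r with Lifr went from -0.40 for Il6st to 0.17 for Jak1 over the 30 libraries and from -0.29 for Stat3 to 0.28 for Lif with the group means subtracted, where Il6st was at -0.12. These are descriptions over libraries that share their group differences.

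On GRCm38, as the files give it, Il6st lies at chr13:112464070-112510086 (plus strand), Osmr at chr15:6813577-6874969 (minus strand, with Lifr on the same chromosome), Il6ra at chr3:89864059-89913196 (minus strand), Stat3 at chr11:100885098-100939540 (minus strand) and Socs3 at chr11:117966079-117970047 (minus strand). Some values are less certain than their counts imply. Il11ra1 (chr4:41699989-41769474, plus strand) overlaps 6 genes, 5 on the other strand and Galt on its own, and the setting for strand in counting is not given in the sources used here. It also has near-identical copies, Il11ra2, Gm13305 and Gm2002, which had 0 counts in all libraries. Stat3 overlaps Stat5a at its end and Jak1 overlaps Raver2, both on the other strand. Over the 30 libraries CPM and TPM correlated at 0.31 for Il6ra and 0.45 for Il11ra1, and at 0.81 for Lifr and 0.82 for Il6st.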

How the data were processed

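Colon RNA of 30 mice (5 groups of 6) was sequenced as paired-end reads after removal of ribosomal RNA. The authors aligned the reads with STAR (GRCm38) and obtained gene counts by featureCounts, and these raw counts were deposited without normalization. The authors also deposited TPM values from StringTie. The submitters' processing notes also name bcl2fastq 2.19.1.403, CASAVA and Trim Galore. The counts summed to 8667177 to 17243712 per library (median 11530916), with 26.1% to 38.0% on mitochondrial genes. Xist and Ddx3y matched the labelled sex in all 30 libraries.

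Each comparison was fitted to the counts of its 12 libraries (24 for the interaction) with edgeR 4.0.16 in R 4.3.3 (filterByExpr, TMM, robust quasi-likelihood F-test) over all genes, with Benjamini-Hochberg adjustment. The study's threshold was read as an unadjusted p below 0.05. DESeq2 1.42.0, the tool of the study, was an alternative. CPM used TMM factors of the 30 libraries, and log2 CPM a prior count of 2. Single genes were compared by exact two-sided permutation tests over 924 splits. A marker score is the mean log2 CPM of the markers with over 0.1 CPM. The fit of the sexes on CD was run on counts simulated from the means and dispersions of the CD libraries. Of 100 genes changed 1.5-fold edgeR called 39 after adjustment, and of 100 changed 2-fold it called 83. It also called 3 unchanged genes. Counts drawn from the model of the fit cannot show where that model fails.

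The 10 members were all named. Of the pathway list, genes past the adjusted threshold, and the 4 with the lowest p past the study's threshold only, were named. Genes like Lifr were the 5 highest and 3 lowest correlations. The members and lists were chosen with earlier results of these data known. Alternatives were DESeq2, its size factors, other filters on low counts, all 30 libraries, the replicate block, each library left out, marker scores as covariates and log2 TPM. Added after seeing the data were Hp without 1 library, the B and T cell score, the 18 male libraries and leaving out libraries with over 50 TPM of squamous markers. Promoter windows came from RefSeq, and all 10 members matched.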

Additional observations from a re-analysis of the deposited data

Results flagged for a closer look

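Some single libraries stood apart from the other 5 of their group, by a gap to the nearest that exceeded Dixon's 95% critical value for 6 samples. Of 100 sets of values examined 10 did so, where about 5 would by chance, since the criterion marks about 1 in 20. CD F replicate 2 had the highest Il6ra (3.59 TPM), Socs3 (4.41 CPM and 2.34 TPM) and Lif (0.862 TPM) of its group. HFD+E2 M replicate 3 had the highest Lif of its group (2.31 CPM and 1.79 TPM), on 40 counts. Stat3 was highest in HFD+E2 M replicate 1 (143 CPM) and lowest in HFD F replicate 6 (30.6 TPM). Jak1 was highest in CD M replicate 1 (51.1 TPM). Cntfr was 0.156 TPM in CD F replicate 5 and listed at 0 in the rest of that group. No Lifr value stood apart in this way.

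The response of Lifr to HFD differed between the sexes by -0.586 (log2, females minus males) in the interaction fit. The 12 female libraries of that fit chose Lifr, so the value is not independent evidence of a sex difference.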

How the results depend on the processing

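Over the count fits run, Lifr kept its sign in males (-0.30 to -0.18, log2) and with E2 (0.28 to 0.44). HFD and CD females did not overlap in Lifr, and their contrast chose it. Leaving out a library could therefore not be expected to change the sign there, and nothing is read from it. In that contrast Lifr was -0.90 to -0.72. Its adjusted call in females was lost (0 of the 9 genes) with at least 10 counts in every library, with the smooth muscle, squamous or adipocyte score and without the squamous-rich libraries. At the study's threshold 2 genes were then called with each score (Lifr with Osmr, or with Socs3 for the squamous score) and without those libraries (Lifr and Socs3). With E2, 1 gene (Il6ra) was called with the smooth muscle score. For the sexes on CD, 2 genes (Lifr and Il6st) passed the adjusted threshold with DESeq2, with no filter, in a fit of all 30 libraries and with the replicate block, and 0 with the smooth muscle or B and T cell score. For the sexes on HFD, 1 gene (Socs3) was called with the squamous score and without the squamous-rich libraries. With each library left out, 1 to 2 genes were called in females, 0 to 2 with E2, 1 to 3 between the sexes on CD and 0 to 1 on HFD, and after adjustment 0 to 1 in females and 1 to 2 between the sexes on CD.

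In TPM a change of sign was counted as a reversal only where the count fit had called the gene. Other changes of sign in TPM are therefore left out of this tally. Of 1687 values 70 (log2 fold changes of the count fits) were counted as reversed, none with an adjusted p below 0.05. With the smooth muscle score these were Jak1 (-0.041) and Lif (0.009295) with HFD in males, Il6st (-0.0150) and Socs3 (-0.0321) with E2, Il11ra1 (0.16) between the sexes on CD, Osmr (-0.0151) between the sexes on HFD, and Il11ra1 (-0.21) and Jak1 (0.025) in the interaction. With the squamous score they were Il11ra1 (-0.23) and Jak1 (0.092) in females, Lif (0.066) with E2, Il11ra1 (0.018) between the sexes on CD, Osmr (-0.12), Il11ra1 (-0.038), Jak1 (0.035) and Lif (-0.012) on HFD, and Il11ra1 (-0.030) in the interaction. Without the squamous-rich libraries they were Il11ra1 (-0.24) and Jak1 (0.084) in females, Lif (0.090) with E2, Osmr (-0.0885), Il11ra1 (-0.47) and Jak1 (0.10) between the sexes on HFD, and Il11ra1 (-0.42) and Jak1 (0.042) in the interaction. The adipocyte score reversed Socs3 with E2 (-0.060) and Lif between the sexes on HFD (-0.071), and the B and T cell score reversed Il6ra (-0.034) and Il11ra1 (0.16) on CD. The cause was not tested. Leaving out a library moved the sign in these ranges: in males Il11ra1 -0.029 to 0.20, Jak1 -0.026 to 0.056 and Lif -0.17 to 0.047, and with E2 Il6st -0.0027 to 0.073, Il11ra1 -0.19 to 0.038, Socs3 -0.14 to 0.18 and Lif -0.28 to 0.12. Between the sexes they were Il11ra1 -0.10 to 0.036 on CD, and on HFD Osmr -0.087 to 0.097, Il11ra1 -0.073 to 0.15, Jak1 -0.067 to 0.030 and Lif -0.054 to 0.15. In the interaction they were Il11ra1 -0.026 to 0.20 and Socs3 -0.35 to 0.080.

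Over all genes, DESeq2 called 214, 26, 37, 774, 50 and 8 after adjustment (HFD in females, in males, E2, sexes on CD, on HFD, interaction) where edgeR called 3, 0, 1, 435, 15 and 0, and at the study's threshold 1018 in females where edgeR called 553, and 730 between the sexes on HFD where edgeR called 469. With no filter edgeR called 1496, 1056, 1805, 2253, 1165 and 1543 at the study's threshold, against 553, 434, 881, 1366, 469 and 818. A fit of all 30 libraries gave 86 adjusted calls in females, 3 in males and 30 between the sexes on HFD. With the smooth muscle score 151, with the squamous score 234 and with the B and T cell score 36 genes passed the adjusted threshold between the sexes on CD. At the study's threshold the squamous score gave 353 genes in females, 507 with E2 and 436 in the interaction, and leaving out the squamous-rich libraries 530 with E2 and 332 in the interaction. The smooth muscle score gave 587 with E2, 780 between the sexes on HFD and 484 in the interaction, and the B and T cell score 849 between the sexes on CD. Adjusted calls between the sexes on HFD fell to 1, and in females to 0, with at least 10 counts in every library. The labels do not say whether replicate numbers pair the samples, and the values do not settle it. Deviations of same-numbered libraries correlated from -0.543 to 0.627. In each comparison 1 to 3 of 6 correlated best with their own number, 3 with E2 and between the sexes on CD. The replicate block gave 12, 2, 7, 941, 10 and 1 adjusted calls, where the fits without it gave 3, 0, 1, 435, 15 and 0. With the block the adjusted p of Il6st on CD was 0.0142, and no other member's call changed. Lif could not be fitted in every comparison with at least 10 counts in every library. Depth limits Lif and Cntfr, each library is 1 animal, and only the count fits of Lifr in males and with E2 are tests of Lifr that its choice did not use.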
